A study of Sus scrofa with 40 samples.

Results

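The 5 genes described here, NOS3, DDAH2, ARG2, EDN1 and KLF4, are regulators of nitric oxide and endothelin, a pair of signals with which the lining of an artery widens or narrows the vessel. They were taken by name, 1 probe set each, from the symbols, titles and target descriptions in the authors' deposited tables. Those tables list 11814 probe sets, and 2411 genes had a single symbol. The arrays hold 23999 probe sets without controls. The rule for membership used names and no measured value. The genes were, however, chosen with earlier results of these data known. All 5 passed the filter on low signal, which kept 17999 probe sets.

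Nitric oxide is made in endothelial cells by NOS3, endothelial nitric oxide synthase, from the amino acid arginine. It diffuses into the muscle layer of the artery, raises cyclic GMP there and relaxes it. ARG2, the mitochondrial arginase, consumes arginine and so competes with the synthase for its substrate, and DDAH2 is a member of the family of enzymes that break down asymmetric dimethylarginine, an inhibitor of the synthase that cells make themselves. EDN1 encodes endothelin 1, a strong constrictor peptide that endothelial cells secrete. KLF4 is a zinc finger transcription factor that responds to blood flow in endothelial cells and is known from human and mouse cells to raise NOS3.

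The RNA came from 40 primary cultures of coronary endothelial cells of female farm pigs aged 4 months, scraped from the inner surface of the artery, grown for 10 days on a collagen-coated dish and used without passage. Regenerated cells came from a stretch of the left anterior descending artery that had been stripped of its lining beforehand and lined anew. Native cells were those of the left circumflex artery, so regrowth and the artery of origin cannot be told apart. The 6 groups were regenerated and native cells of pigs fed high cholesterol (CHL, 6 pairs), of pigs in a group named for polyunsaturated fatty acids in the design text and for fish oil in the title (FO, 6 pairs), and of controls (8 pairs). Each culture was hybridised to 1 Affymetrix porcine array. Signals are on the linear MAS5 scale, on which every array had a 2% trimmed mean near 500.1, and differences are on the log2(signal + 16) scale, regenerated minus native within a pair.

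The cultures carried endothelial markers. PECAM1, a junction protein, had signals of 4452 to 10287 and CDH5, the endothelial cadherin, 5959 to 11271 over the 40 arrays, and VWF (27.9 to 99.7), CLDN5 (75.3 to 1081) and ESAM (0.98 to 4059, under 16 on 2 arrays) were lower or more variable. KDR was under 16 on 33 arrays and ERG on 15, and neither passed the filter. In 2 regenerated cultures the 3'/5' signal ratios of actin and GAPDH, which rise as RNA degrades, were above 10, at 264 and 1005 in control pair 6 and at 422 and 59.9 in FO pair 3. The other 38 arrays had ratios up to 6.89 (actin) and 1.82 (GAPDH). The labels of 14 pairs carry the same animal number on both cultures, those of 5 control pairs carry 2 different MA numbers, and those of FO pair 6 name different animals. Values without these pairs are given below where leaving them out ended a call, or turned or moved by over 1.5 times a difference printed for 1 of the 5 members.

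No difference between regenerated and native cells in any of the 5 members passed adjustment over all probe sets, in any diet. In control pigs DDAH2 was 1.95-fold higher in regenerated cells and ARG2 and KLF4 were 0.583 and 0.637 of their native levels. NOS3 and EDN1 were 1.04-fold and 1.07-fold of their native levels there. In FO pigs the lowest were ARG2 and EDN1, with log2 differences of -0.71 and -0.48. By limma with Benjamini-Hochberg adjustment, 0 of 5 members passed in control pairs, in which 0.289% of all probe sets did. It was also 0 of 5 in CHL pairs (background 0.00556%), in FO pairs (0.0389%) and for the mean of the 3 diets (2.67%). At an unadjusted p under 0.05, DDAH2, ARG2 and KLF4 (3 of 5) stood below the line in control pairs, where 27.2% of all probe sets did, and the same 3 did so for the mean of the 3 diets, where 23.4% did. No member reached it in CHL pairs (background 6.36%) or FO pairs (8.66%). By the methods' t-test on the same values no member passed after adjustment, and the same 3 were under 0.05 unadjusted in control pairs (background 18.4%), with none in CHL pairs (6.78%) or FO pairs (5.01%).

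**Figure D1:**
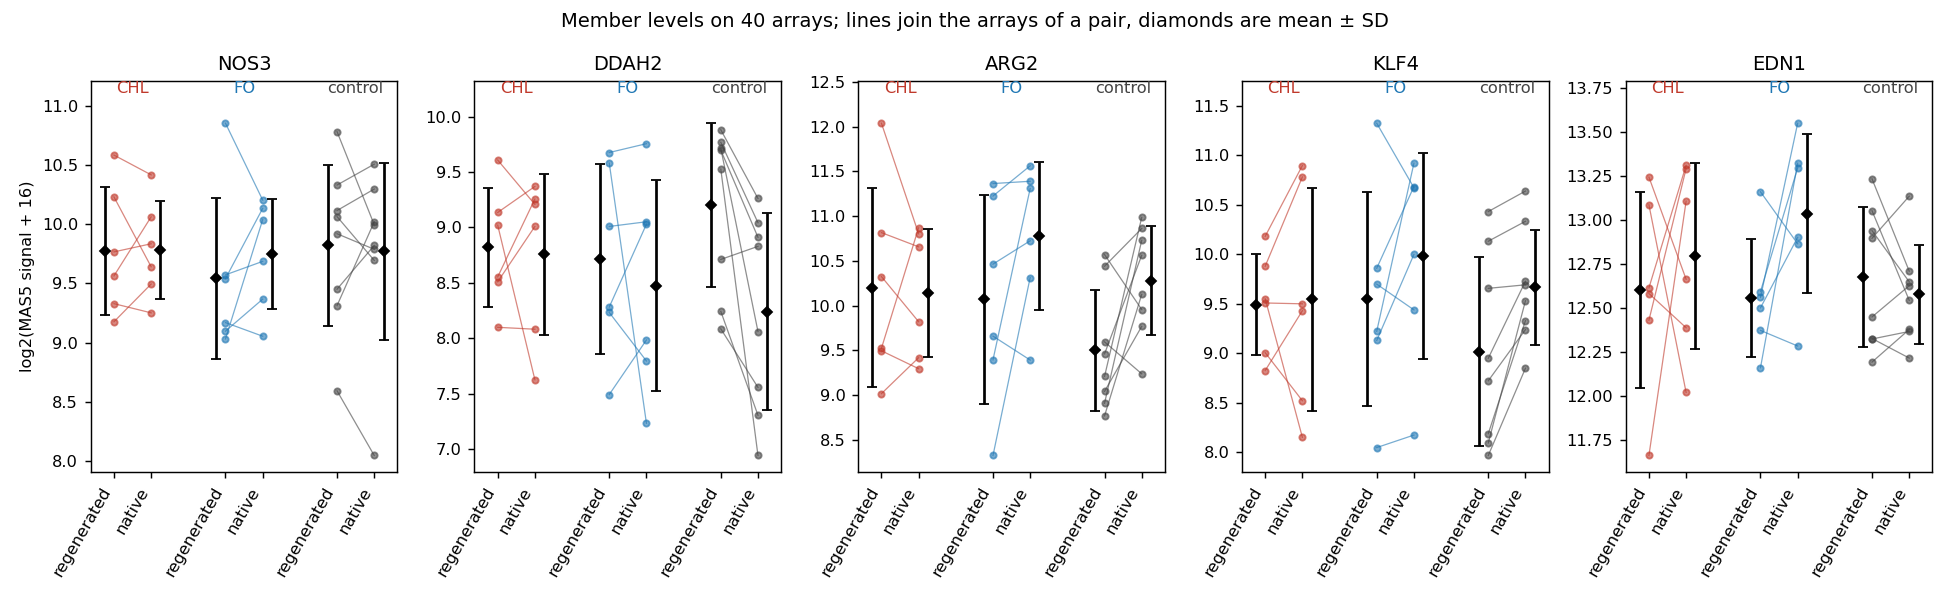
Log2(signal + 16) of NOS3, DDAH2, ARG2, EDN1 and KLF4 in each culture, with regenerated cells left of native cells in CHL, FO and control pigs; lines join the 2 cultures of a pair, and diamonds with bars are group means ± SD (n = 6, 6 and 8 pairs). All groups overlap in every panel, and the KLF4 lines of the 8 control pairs all end higher in the native culture.

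NOS3, the synthase, had signals of 370, 1005 and 1749 (lowest, median and highest) in regenerated control cells and 248, 948 and 1442 in native control cells. The regenerated culture was higher in 4 of 8 pairs, and the groups overlapped throughout. The difference was 0.05 on the log2 scale (SE 0.17, 95% interval -0.31 to 0.41, limma adjusted p = 0.883). In CHL pigs NOS3 signals were 562, 798 and 1522 in regenerated cells and 594, 841 and 1354 in native cells, with 3 of 6 pairs higher and a difference of -0.01 (SE 0.20, adjusted p = 0.998). In FO pigs they were 507, 644 and 1838 in regenerated cells and 515, 923 and 1165 in native cells. Here 4 of 6 regenerated cultures were lower, and the difference was -0.20 (SE 0.20, adjusted p = 0.753), or -0.04 without FO pair 6. Over the mean of the 3 diets the 95% interval of the NOS3 difference ran from -0.28 to 0.17, which is 0.822 to 1.13 in fold.

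DDAH2, of the enzyme family that breaks down the synthase inhibitor, had signals of 256, 768 and 928 in regenerated control cells and 107, 345 and 598 in native control cells. It was higher in the regenerated culture in 7 of 8 pairs, which 8.07% of all probe sets were in at least 7 of 8, and the groups overlapped between 256 and 598. The difference was 0.97 on the log2 scale (SE 0.29, 95% interval 0.35 to 1.58, limma adjusted p = 0.0694). It passed when control pair 8 (adjusted p = 0.0436) or FO pair 6 (0.0434) was left out, but 13.3% and 3.24% of all probe sets then did. The widest gap was in control pair 4, at 722 in regenerated and 107 in native cells. In CHL pigs DDAH2 signals were 258, 432 and 765 in regenerated cells and 182, 537 and 646 in native cells. In FO pigs they were 164, 397 and 802 in regenerated cells and 134, 372 and 849 in native cells. Neither group pair stood apart, with differences of 0.06 in CHL pigs (SE 0.34, adjusted p = 0.994) and 0.24 in FO pigs (SE 0.34, adjusted p = 0.839). Only 2 of 6 FO pairs were higher in the regenerated culture, and FO pair 6, at 750 in regenerated and 134 in native cells, made the mean positive. Without FO pair 6 the FO difference was -0.19.

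ARG2, the arginase that competes for arginine, had signals of 420, 632 and 1504 in regenerated control cells and 588, 1298 and 2012 in native control cells. It was lower in the regenerated culture in 6 of 8 pairs, with overlap from 588 to 1504. The difference was -0.78 (SE 0.30, 95% interval -1.41 to -0.15, limma adjusted p = 0.113). In FO pigs ARG2 signals were 305, 1094 and 2619 in regenerated cells and 656, 2098 and 3007 in native cells, lower in 5 of 6 pairs. The FO difference of -0.71 had a 95% interval that just reached 0, from -1.44 to 0.02 (adjusted p = 0.578), and without FO pair 6 it was -0.47. In CHL pigs the signals were 502, 993 and 4187 in regenerated cells and 612, 1243 and 1854 in native cells, and 4 of 6 pairs were higher. The 4187 of CHL pair 1 was the highest ARG2 signal of all 40 cultures, and the CHL difference was 0.06 (SE 0.35, adjusted p = 0.994). A second ARG2 probe set, not used for the values above, gave differences of -1.55 ± 1.85 in control pairs (SD, n = 8), 0.07 ± 0.96 in CHL pairs and -1.07 ± 1.14 in FO pairs (n = 6 each), and over the 20 pairs it went with the first at r = 0.78.

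KLF4, the transcription factor, had signals of 234, 442 and 1363 in regenerated control cells and 445, 766 and 1576 in native control cells. It was lower in the regenerated culture in all 8 control pairs, with differences of -1.44 to -0.04 on the log2 scale, a pattern shared by 1.69% of all probe sets. Across animals the groups overlapped widely, so the direction shows within pairs and not between the group ranges. The difference was -0.65 (SE 0.25, 95% interval -1.16 to -0.14, limma adjusted p = 0.106). In CHL pigs KLF4 signals were 437, 722 and 1144 in regenerated cells and 268, 690 and 1888 in native cells, with 3 of 6 pairs lower and a difference of -0.05 (SE 0.28, adjusted p = 0.994). In FO pigs they were 248, 697 and 2544 in regenerated cells and 272, 1310 and 1919 in native cells, with 4 of 6 lower and a difference of -0.43 (SE 0.28, adjusted p = 0.644), or -0.18 without FO pair 6. Over all 20 pairs KLF4 was lower in the regenerated culture in 15, ARG2 in 13, NOS3 in 11 and EDN1 in 11, and DDAH2 was higher in 12.

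EDN1, the source of endothelin 1, had signals of 4671, 6597 and 9620 in regenerated control cells and 4745, 6137 and 8987 in native control cells. These ranges nearly coincide, 4 of 8 pairs were higher, and the difference was 0.10 (SE 0.22, 95% interval -0.35 to 0.55, limma adjusted p = 0.804). In CHL pigs EDN1 signals were 3228, 6191 and 9689 in regenerated cells and 4142, 7645 and 10152 in native cells, with 3 of 6 pairs on each side (difference -0.19, SE 0.25, adjusted p = 0.939). In FO pigs they were 4566, 5906 and 9144 in regenerated cells and 4976, 8843 and 11982 in native cells. The regenerated FO culture was lower in 4 of 6 pairs, the ranges overlapped, and the difference of -0.48 had an interval of -0.996 to 0.0397 (adjusted p = 0.588).

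**Figure D2:**
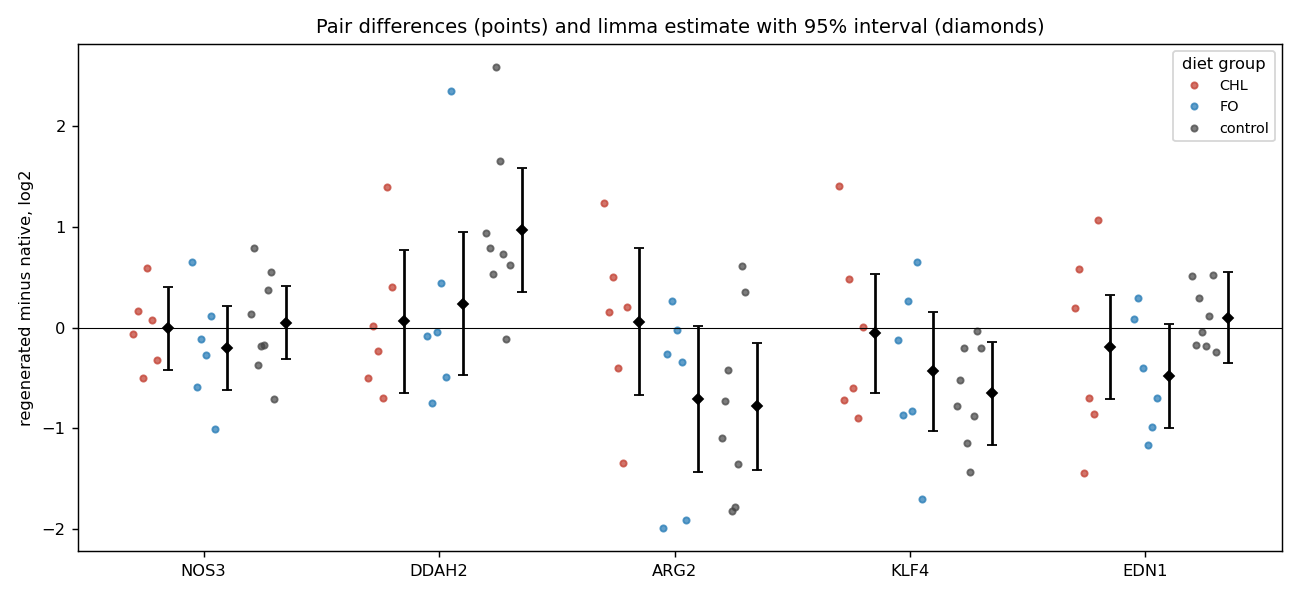
Regenerated minus native difference in log2(signal + 16) for each member in CHL, FO and control pairs; points are pairs, and the bar is limma's estimate with its 95% interval. The control intervals of DDAH2 (0.35 to 1.58), ARG2 (-1.41 to -0.15) and KLF4 (-1.16 to -0.14) lie on 1 side of 0 before adjustment, and all CHL and FO intervals cross 0.

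The control differences were not alike in the 2 kinds of control label. In the 5 control pairs with MA numbers DDAH2 differed by 1.30 ± 0.83 (SD, n = 5), higher in 5 of 5, and in the 3 pairs named by artery by 0.41 ± 0.46 (n = 3), higher in 2. ARG2 differed by -1.17 ± 0.62 in the MA pairs, lower in 5 of 5, and by -0.13 ± 1.07 in the artery pairs, lower in 1 of 3. KLF4 differed by -0.82 ± 0.49 in the MA pairs and by -0.37 ± 0.45 in the artery pairs, and was lower in all pairs of both kinds. NOS3 differed by 0.04 ± 0.46 in the MA pairs and 0.07 ± 0.68 in the artery pairs, and EDN1 by 0.08 ± 0.31 in the MA pairs and 0.13 ± 0.38 in the artery pairs. Whether the label style goes with a batch was not tested. Without the 2 animals that had a degraded culture, the control differences were 0.999 for DDAH2, -0.70 for ARG2 and -0.62 for KLF4 (limma adjusted p = 0.160, 0.236 and 0.212), and that of NOS3 was 0.00419. Over the mean of the 3 diets, the 14 pairs with the same animal number gave 0.10 for DDAH2, -0.18 for ARG2, -0.20 for KLF4 and 0.00614 for NOS3, against 0.42, -0.48, -0.38 and -0.05 over all 20 pairs. The DDAH2 difference over that mean was 0.28 without FO pair 6.

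No difference between diets passed for any member. The order of the 6 group means was led by FO native cells for ARG2 (10.78 ± 0.83, SD, n = 6, on the log2 scale), EDN1 (13.04 ± 0.45) and KLF4 (9.98 ± 1.04). Control regenerated cells were lowest for ARG2 (9.50 ± 0.68, n = 8) and KLF4 (9.02 ± 0.96), and highest for DDAH2 (9.20 ± 0.74) and NOS3 (9.82 ± 0.68). DDAH2 was lowest in control native cells (8.24 ± 0.89), and NOS3 and EDN1 were lowest in FO regenerated cells (9.54 ± 0.68 and 12.56 ± 0.33, n = 6). From the highest to the lowest group the means spanned 1.28 for ARG2, 0.97 for DDAH2, 0.96 for KLF4, 0.48 for EDN1 and 0.28 for NOS3. In each member's order 0 of 5 gaps between neighbouring groups exceeded the larger of their SDs.

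The regenerated-minus-native difference was next set against that of control pigs, the comparison the design names for each diet. For CHL minus control 0 of 5 members passed (limma, background 0%), and 0 of 5 were under an unadjusted 0.05 (background 14.6%). The widest contrasts were DDAH2, -0.90 on the log2 scale (SE 0.45, 95% interval -1.84 to 0.03, adjusted p = 0.35), ARG2, 0.84 (SE 0.46, adjusted p = 0.380) and KLF4, 0.60 (SE 0.38, adjusted p = 0.431). Each of these 3 had the opposite sign to the control difference, since their CHL differences lay near 0. With the same-number pairs alone, which leaves 3 control pairs, the contrasts were -0.35 for DDAH2, 0.19 for ARG2 and 0.32 for KLF4. For FO minus control 0 of 5 passed (background 0%) and 0 of 5 were under 0.05 unadjusted (4.20%), with DDAH2 at -0.73 (SE 0.45, adjusted p = 0.909), EDN1 at -0.58 (SE 0.33, adjusted p = 0.909) and ARG2 at 0.07 (SE 0.46, adjusted p = 0.982). Without FO pair 6 DDAH2 was at -1.15 and ARG2 at 0.31. ARG2 turned to -0.34 with the same-number pairs alone and to -0.21 without the 2 animals that had a degraded culture. Both contrasts use the same 8 control pairs.

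In native cells 0 of 5 members passed for CHL minus control (background 0.0111%) or FO minus control (0%), and 0 of 5 were under 0.05 unadjusted (backgrounds 15.0% and 9.09%). EDN1 came nearest. Its native signals were 4976, 8843 and 11982 in FO pigs, against 4745, 6137 and 8987 in controls, a difference of 0.46 (SE 0.22, 95% interval -0.01 to 0.92, limma adjusted p = 0.561). Native ARG2 was 0.50 higher in FO pigs than in controls (SE 0.36, adjusted p = 0.723), and native DDAH2 was 0.52 higher in CHL pigs than in controls (SE 0.43, adjusted p = 0.595). With the label style of the control pigs as a block the native DDAH2 difference turned to -0.29, and that of ARG2 in FO pigs was 1.01. With the same-number pairs alone the native FO difference was 0.30 for EDN1 and 0.90 for ARG2, and without the 2 animals that had a degraded culture it was 0.76 for ARG2. In regenerated cells 0 of 5 passed for CHL minus control (background 0%, and 9.16% under 0.05 unadjusted) or FO minus control (0% and 4.51%), and again no member was under 0.05. ARG2 was 0.70 higher in regenerated cells of CHL pigs (SE 0.48, adjusted p = 0.651) and 0.57 higher in those of FO pigs (SE 0.48, adjusted p = 0.970) than in those of controls. DDAH2 was lower in regenerated cells of CHL pigs (-0.38, adjusted p = 0.741) and of FO pigs (-0.49, adjusted p = 0.970) than in those of controls, and with the same-number pairs alone by more, at -0.63 and -0.92.

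DDAH2, ARG2 and KLF4 moved together across animals, while no relation of NOS3 or EDN1 with another member passed. In 9 of 20 pairs DDAH2 was higher and both ARG2 and KLF4 were lower in the regenerated culture, in 1 of 6 CHL pairs, 2 of 6 FO pairs and 6 of 8 control pairs. Over the 20 pair differences, ARG2 and KLF4 had Pearson r = 0.73 and Spearman rho = 0.71 (two-sided permutation tests with 100000 resamples, adjusted over 10 pairs of members, p = 0.0018 and 0.0058). DDAH2 ran the other way, with r = -0.68 and rho = -0.61 against ARG2 (adjusted permutation p = 0.0028 and 0.0154) and r = -0.68 and rho = -0.68 against KLF4 (0.0028 and 0.0058). The other 7 pairs of members had r between -0.29 and 0.17, with adjusted permutation p of 0.558 or more.

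These relations kept their sign within each diet. ARG2 and KLF4 had r = 0.87 in the 6 CHL pairs, 0.41 in the 6 FO pairs and 0.94 in the 8 control pairs. DDAH2 and ARG2 had r = -0.69, -0.55 and -0.82 in CHL, FO and control pairs, and DDAH2 and KLF4 had -0.49, -0.71 and -0.82. Without the 2 pairs farthest from the median on the first gene of each relation, r was 0.78 for ARG2 and KLF4 (without CHL 1 and FO 1), and -0.55 for DDAH2 and ARG2 and -0.58 for DDAH2 and KLF4 (without FO 6 and control 4). Over the 14 pairs with the same animal number on both labels, r was 0.55 for ARG2 and KLF4, -0.36 for DDAH2 and ARG2 and -0.43 for DDAH2 and KLF4, and 0 of 10 relations passed (smallest adjusted permutation p = 0.404). In those 14 pairs DDAH2 and ARG2 rested on CHL 5 and control 6, without which r was 0.08. The 14 pairs leave out control pairs 4 and 5 and FO pair 6. These had the highest DDAH2 differences of all pairs (2.59, 1.65 and 2.35). They also had the lowest KLF4 differences (-1.14, -1.44 and -1.70). Their ARG2 differences were -1.82, -1.78 and -1.91, and only that of FO 1 was lower (-1.99). The 2 cultures of each did not deviate together from their group means (correlation below 0). Leaving out just these pairs together was not tested.

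Relations of this size were common on these arrays. Of 1886 named genes, 9.65% were related to ARG2 as strongly as KLF4 was, in either direction, and 8.27% to KLF4 as strongly as ARG2 was. For DDAH2 and ARG2 the shares were 15.9% and 14.8%, and for DDAH2 and KLF4 15.9% and 12.7%. These shares run over genes, which are not independent replicates.

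The pattern was also seen between cultures, without the pairing. Over the 20 regenerated cultures the levels of ARG2 and KLF4 had r = 0.69, those of DDAH2 and ARG2 -0.72 and those of DDAH2 and KLF4 -0.65 (adjusted permutation p = 0.003, 0.003 and 0.007). Over the 20 native cultures, DDAH2 had r = -0.70 with ARG2 and -0.61 with KLF4 (adjusted permutation p = 0.0101 and 0.0248), and ARG2 and KLF4 had 0.42 (0.164). These comparisons over levels, which also brought in NOS3 and KLF4 at r = -0.58 in regenerated cells and EDN1 and KLF4 at 0.56 in native cells, were chosen after the pair differences had been seen.

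**Figure D3:**
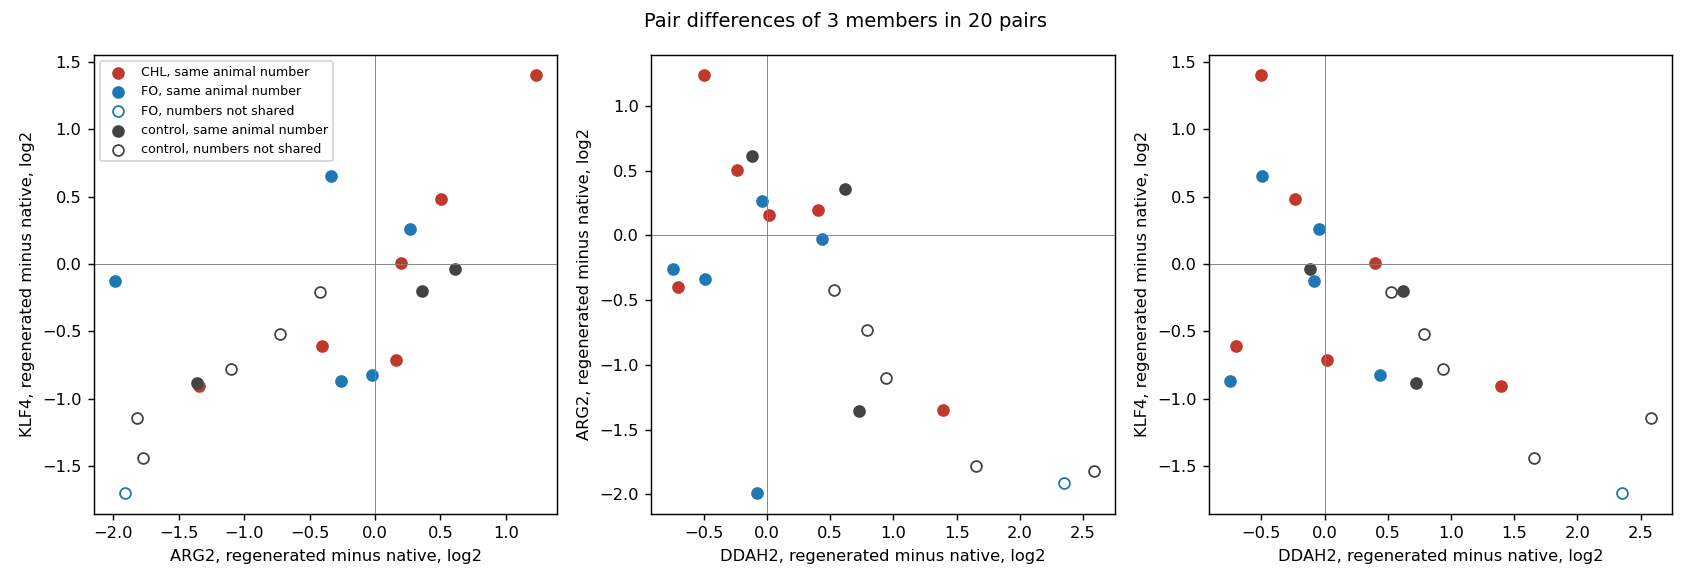
Regenerated minus native difference in log2(signal + 16) of KLF4 against ARG2, ARG2 against DDAH2 and KLF4 against DDAH2 in 20 pairs, coloured by diet; open points are pairs whose labels do not share an animal number. ARG2 and KLF4 lie along a rising line (r = 0.73), DDAH2 falls with both (r = -0.68 each), and open points make up most of the upper end of DDAH2.

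Smooth muscle markers, taken as a sum, moved with these 3 members. The summed signal of 9 measured smooth muscle markers (of 10 on the list) was 9907, 21529 and 34935 (lowest, median and highest) in regenerated and 14121, 17503 and 32786 in native CHL cells. It was 7019, 24098 and 45510 in regenerated and 9485, 15429 and 23942 in native FO cells, and 8206, 34219 and 50437 in regenerated and 5706, 10177 and 42118 in native control cells. It was higher in the regenerated culture in 3 of 6 CHL, 5 of 6 FO and 7 of 8 control pairs, and the groups overlapped in each diet. CALD1, TAGLN and ACTA2 had the highest mean signals of the 9 (8543, 6010 and 3807). Of the 9, ACTA2, smooth muscle actin, rose in control pairs by 3.62 on the log2 scale (SE 0.77, limma adjusted p = 0.0487, higher in 6 of 8 pairs). In CHL pairs ACTA2 was lower in 5 of 6 (mean difference -0.44), and in FO pairs it was higher in 5 of 6 (1.72). MYL9, a myosin light chain, rose over the mean of the 3 diets by 0.77 (SE 0.21, limma adjusted p = 0.0476). Neither call held with the same-number pairs alone, where ACTA2 was at 2.70 (adjusted p = 0.856) and no probe set passed in control pairs, and MYL9 was at 0.64 (adjusted p = 0.466). Without the 2 animals that had a degraded culture the adjusted p was 0.117 for ACTA2 and 0.104 for MYL9, and leaving out 1 animal in turn kept ACTA2 below the threshold in 6 of 20 fits and MYL9 in 5 of 20. ACTA2 signals ran from 45.7 to 18924 over the 40 cultures. In cultures of mixed cells, fewer cells of a type and less RNA per cell cannot be told apart.

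Across the 20 pairs DDAH2 went up with the smooth muscle sum (r = 0.80, rho = 0.77), and ARG2 (r = -0.80, rho = -0.74) and KLF4 (r = -0.75, rho = -0.72) went down with it. The permutation p of r, adjusted over 25 relations of 5 members with 5 marker lists, was 0.000375, 0.000375 and 0.00175. Within CHL, FO and control pairs r was 0.88, 0.79 and 0.73 for DDAH2, -0.94, -0.76 and -0.81 for ARG2, and -0.80, -0.71 and -0.93 for KLF4. Over the 14 pairs with a shared animal number it was 0.55, -0.67 and -0.58. Without control pairs 4 and 5, farthest from the median of the marker sum, it was 0.74, -0.76 and -0.71. For NOS3 and EDN1 r was 0.01 and 0.08. These marker relations were chosen after the member relations had been seen, and the part of smooth muscle RNA in the differences of DDAH2, ARG2 and KLF4 was not tested. The share of all genes related to the smooth muscle sum as strongly was not computed. The values therefore do not show a trait particular to these members.

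The endothelial sum (9 of 10 markers) was 17449 to 22228 in regenerated and 14379 to 20602 in native CHL cells, 14305 to 19916 in regenerated and 17357 to 21263 in native FO cells, and 15864 to 24890 in regenerated and 17239 to 26540 in native control cells. PECAM1 and CDH5 make up most of this sum. Gene by gene, 6 of 7 tested endothelial markers had negative differences in control pairs, with a median of -0.19. In these pairs 2 of 7 were lower at an unadjusted limma p under 0.05. Of all probe sets 27.2% were under it, counted in either direction. In FO pairs 5 of 7 were negative (median -0.19), and 2 were lower under 0.05 (background 8.66%, in either direction). In CHL pairs 2 of 7 were negative (median 0.09), with none under 0.05 (background 6.36%). None passed in any diet. The mean log2 difference over the 9 measured markers was 0.04 ± 0.18 in CHL pairs (SD, n = 6), -0.24 ± 0.45 in FO pairs (n = 6) and -0.31 ± 0.45 in control pairs (n = 8). The part of this shift in the members' differences was not tested. Relations of the endothelial sum with the 5 members had r between -0.33 and 0.32, none past adjustment. Of 4 measured adipocyte markers (of 5), ADIPOQ was under 16 on all 40 arrays, and PPARG, a regulator of fat storage (log2 difference 1.24, limma adjusted p = 0.000873), and FABP4, a fatty acid carrier (1.29, adjusted p = 0.0192), rose over the mean of the 3 diets. The adipocyte sum was higher in the regenerated culture in 6 of 6 CHL, 6 of 6 FO and 7 of 8 control pairs. ARG2 went down with it over the 20 pairs (r = -0.65, adjusted permutation p = 0.00837, rho = -0.53 with 0.107), though r was 0.30 in CHL pairs. Of 7 measured fibroblast markers (of 8) POSTN fell and FAP rose, by -2.79 and 1.38 over the mean of the 3 diets (limma adjusted p = 0.00114 and 0.0462). With the same-number pairs alone PPARG (adjusted p = 0.0393) and POSTN (0.0488) passed again, while FABP4 (0.289) and FAP (0.466) did not. FAP did not pass without the degraded animals either (0.0916), and passed in 4 of 20 fits that left out 1 animal. Fibroblast and leukocyte sums (2 of 6 leukocyte markers measured) had no relation with a member that passed adjustment, and no marker was at 0 on any array.

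**Figure D4:**
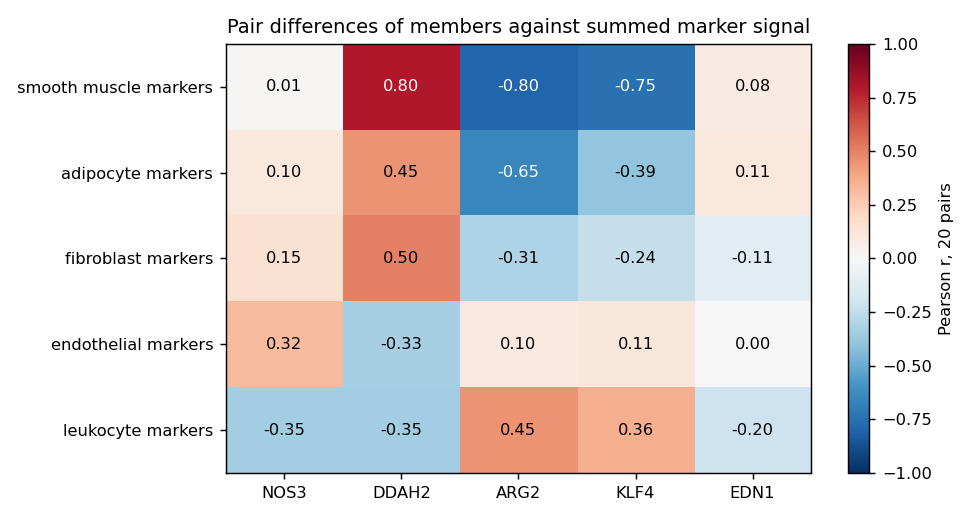
Pearson r over 20 pairs between each member's regenerated minus native difference and the log2 ratio of the summed signal of 5 marker lists. The strongest cells are DDAH2, ARG2 and KLF4 against smooth muscle markers, at 0.80, -0.80 and -0.75, and the NOS3 and EDN1 cells of that list are near 0.

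The named genes whose pair differences were most like each member's, of 1886 ranked by r over the 20 pairs, also differed between members. For KLF4 they were DDIT4 (r = 0.92, rho = 0.94), TESC (0.88 and 0.86) and CHI3L1 (0.87 and 0.88). For DDAH2 they were PON2 (0.93 and 0.84), TSPAN2 (0.88 and 0.92) and ACOT6 (0.87 and 0.80). For ARG2 they were NOSIP (0.87 and 0.82), TMED10 (0.86 and 0.81) and LGALS9 (0.85 and 0.81). NOSIP is a protein named for its binding to endothelial nitric oxide synthase, and its r with ARG2 was 0.95 in CHL, 0.82 in FO and 0.89 in control pairs. Lower values of r were found for NOS3, with FANCI (0.72 and 0.71) and GOT2 (0.70 and 0.67), and for EDN1, with TCEA1 (0.68 and 0.64), TFAM (0.59 and 0.51) and C7H6orf62 (0.58 and 0.60).

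Other genes of the same pathways were read from 8 lists by role. Of 80 genes, 32 had a named probe set in the authors' deposited tables and 30 passed the filter, KLF2 and KDR being too dim. In control pairs 11 of the 30 had positive and 19 negative differences, with a median of -0.15 against -0.02 over all probe sets. None of the 30 passed by limma, while 3 were higher and 8 lower at an unadjusted p under 0.05, where 27.2% of all probe sets were under it. Over the mean of the 3 diets 12 were positive and 18 negative, with a median of -0.02 against -0.005, and 1 of 30 passed, against 2.67% of all probe sets. In CHL pairs 20 of the 30 were positive and in FO pairs 14, and none passed in either.

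The gene that passed was PDE3A, a phosphodiesterase that breaks down cyclic AMP and is inhibited by the cyclic GMP that nitric oxide raises. Its signals were 59.1, 71.6 and 113 in regenerated and 68.3, 91.7 and 150 in native CHL cells, 20.2, 54.3 and 85.0 in regenerated and 48.1, 87.0 and 120 in native FO cells, and 36.7, 90.0 and 148 in regenerated and 65.0, 118 and 197 in native control cells. It fell in regenerated cells by -0.47 over the mean of the 3 diets (SE 0.09, 0.721-fold, limma adjusted p = 0.00623). It was lower in 5 of 6 CHL, 6 of 6 FO and 8 of 8 control pairs, and 1.69% of all probe sets were lower in all 8 control pairs. The groups overlapped in each diet. With the same-number pairs alone the difference was -0.37 and did not pass (adjusted p = 0.323). PDE3A was dim, so the added 16 understates its change.

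Among partners of the synthase, NOSTRIN, which helps carry NOS3 away from the plasma membrane, had signals of 202, 283 and 467 in regenerated and 278, 423 and 838 in native control cells. It was lower in all 8 control pairs, as 1.69% of all probe sets were (log2 difference -0.51, SE 0.15, limma adjusted p = 0.0679). It was lower in only 3 of 6 CHL and 3 of 6 FO pairs, and over the mean of the 3 diets its difference was -0.25 (adjusted p = 0.139). NOSIP was lower in 7 of 8 control pairs (-0.46, SE 0.15, adjusted p = 0.0760) and differed by -0.21 over the mean of the 3 diets (adjusted p = 0.192). PRMT1, the main arginine methyltransferase and so a step upstream of asymmetric dimethylarginine, differed by -0.22 (adjusted p = 0.107), and PRMT3, another methyltransferase, by -0.02 (adjusted p = 0.888).

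In arginine transport, SLC7A7 differed by 0.35 (adjusted p = 0.156) and SLC3A2, the heavy chain of such transporters, by -0.12 (adjusted p = 0.605) over the mean of the 3 diets. GCHFR, a regulator of the enzyme that makes the synthase cofactor tetrahydrobiopterin, differed by 0.09 (adjusted p = 0.664), SOD2, the mitochondrial superoxide dismutase, by -0.17 (adjusted p = 0.682), and EDNRB, an endothelin receptor, by -0.07 (adjusted p = 0.714). None of these passed.

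Of genes tied to KLF factors, THBD, thrombomodulin, an anticoagulant receptor that KLF2 and KLF4 raise in human endothelial cells, came closest to the threshold. Its signals were 775, 5007 and 8798 in regenerated and 1651, 2685 and 4954 in native CHL cells, 682, 2494 and 9528 in regenerated and 443, 1568 and 3336 in native FO cells, and 1544, 3443 and 7251 in regenerated and 684, 1381 and 4621 in native control cells. It was higher in the regenerated culture in 4 of 6 CHL, 6 of 6 FO and 8 of 8 control pairs, by 0.68 over the mean of the 3 diets (SE 0.20, limma adjusted p = 0.0587). Of all probe sets 8.07% were higher in at least 7 of 8 control pairs, and the share higher in all 8 was not computed. In all 8 control pairs THBD was higher and KLF4 lower in the regenerated culture, and a relation between them was not tested. KLF10, another Krüppel-like factor, differed by 0.38 (adjusted p = 0.104), and the receptors HTR2B, for serotonin, and P2RY2, for nucleotides, by 0.33 (adjusted p = 0.191) and 0.08 (adjusted p = 0.787).

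**Figure D5:**
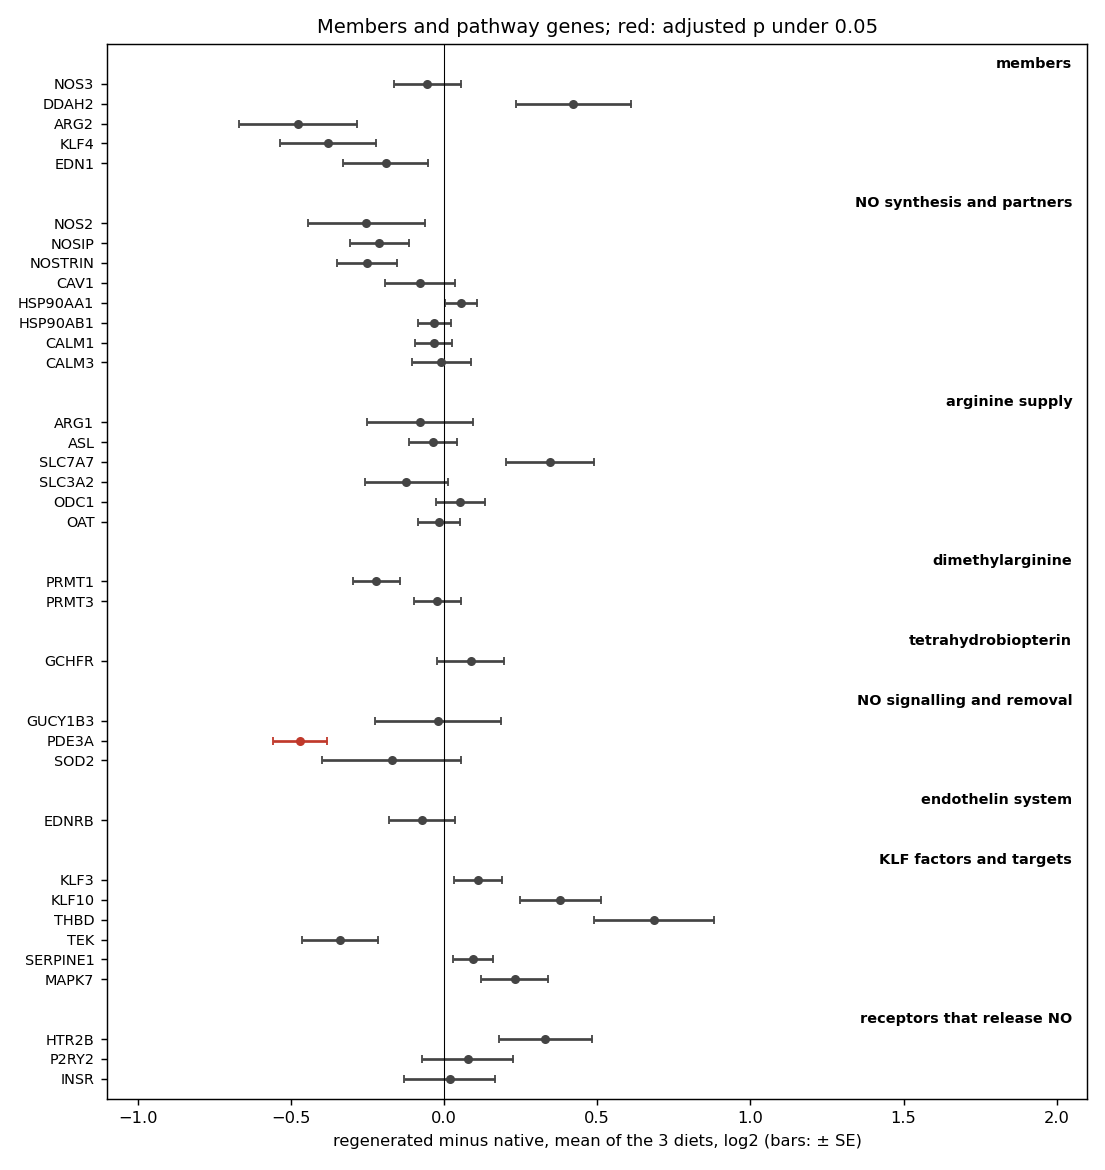
Limma estimate ± SE of the regenerated minus native difference in log2(signal + 16), mean of the 3 diets, for the 5 members and 30 other genes of the nitric oxide, arginine, endothelin and KLF lists; red marks an adjusted p under 0.05 over all 17999 probe sets. PDE3A at -0.47 is the red point, and the 5 members lie between -0.48 and 0.42.

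The authors' deposited tables list folds for the same probe sets. For regenerated against native control cells, 1 authors' deposited table on MAS5 values gives DDAH2 2.02-fold up, ARG2 1.73-fold down and KLF4 1.59-fold down. Another authors' deposited table on MAS5 values gives NOS3 as 1.04-fold up for the same comparison. For regenerated against native FO cells the first of these authors' deposited tables gives ARG2 1.65-fold down, KLF4 1.36-fold down and DDAH2 1.19-fold up. In the authors' deposited table of single control pairs KLF4 was down in all 8, by 1.03-fold to 2.81-fold. Another of the authors' deposited tables, made with a guided workflow whose scaling is not given in the sources used here, lists DDAH2 as 1.70-fold up in control cells and 1.17-fold down in CHL cells. A further authors' deposited table, titled as a list of changed genes with no workflow named, includes DDAH2 and ARG2. It gives log2 values for native over regenerated control cells of -1.42 for DDAH2 and 1.46 for ARG2. Its direction is the reverse of the one used above. Both values are larger in size than the limma differences of 0.97 and -0.78 in control pairs, neither of which passed adjustment. The reason for the larger values was not tested.

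The identity of 3 probe sets is less firm than their names. The DDAH2 probe set has no symbol or title in the deposited tables and is named from its target description, a transcript highly similar to human DDAH2. The ARG2 probe set carries a provisional symbol and a title that calls it similar to arginase type II. The KLF4 probe set has the symbol and title of KLF4, but the target description of the array names another similarity, so its values hold for KLF4 as far as the tables name it. NOS3 and EDN1 are matched to pig mRNAs.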

How the data were processed

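Total RNA of 40 cultures was hybridised to Affymetrix porcine arrays, per the labels' protocols. The authors deposited linear intensity values, which the submitters' processing notes attribute to MAS5 (version and annotation build not given in the sources used here). MAS5 summarises each array alone, so dim probe sets vary more. The authors' deposited tables also hold fold (ratio) and log2 fold values of their own comparisons, which were copied and not tested.

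Groups and pairs come from the titles, and the design text states that both cultures of a pair came from 1 animal. As a check, paired arrays deviated together from their group means (correlation above 0.1) in 17 of 20 pairs. Control pairs 4 and 5 and FO pair 6 were below 0, and had the highest DDAH2 and lowest KLF4 differences. Of 24123 probe sets, 124 controls were left out, and so were those at or below the 25th percentile of mean log2(signal + 16), which left 17999. Linear models were fitted to the log2 of the deposited signals with limma 3.58.1 in R 4.3.3 (tables were read by data.table, version 1.17.8), with the animal as a fixed block for regenerated minus native and none within native or regenerated cells. P-values were two-sided and adjusted by the Benjamini-Hochberg method over all 17999 probe sets, with a threshold of 0.05. The methods' t-test is the paired test the design text names. Correlations used permutation tests in Python 3.11.15 (numpy 2.4.6, pandas 2.3.3, scipy 1.17.1, matplotlib 3.10.9). The fits were tested on simulated data first.

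Members, lists and tests were chosen with earlier results of these data known. Other genes named are, per pathway list, those that passed and the 2 of smallest p over the mean of the 3 diets, the 3 genes most like each member, and marker genes that passed. The result for 1 of these genes is not reported here. Names come from the deposited tables and target descriptions, updated through a RefSeq table (Sscrofa11.1) used for names alone. No sequences are shown. Alternatives were quantile normalization, pseudocounts of 1 and 64, no filter or the 50th percentile, all probe sets of a gene, leaving out degraded animals, unshared animal numbers or each animal in turn, label style as a block, and no replicate block.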

Additional observations from a re-analysis of the deposited data

Results flagged for a closer look

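Of 45 groups of member levels and pair differences examined, 2 had a culture far from the others, about what chance gives, since it marks 1 in 20. Both concern NOS3. Native control culture 7 had the lowest NOS3 level of its group, at 8.04 on the log2 scale, with the next culture at 9.70. Regenerated FO culture 1 had the highest NOS3 level of its group, at 10.86, with the next at 9.57.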

How the results depend on the processing

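The call was the same under every alternative setting run, apart from leaving out single animals: 0 of 5 members passed in each of the 10 comparisons. Of 465 member values under these settings 19 had the other sign, none past the threshold. With quantile normalization NOS3 was 0.0127 in CHL pairs, 0.00252 in native FO minus control and 0.00629 in regenerated CHL minus control. With same-number pairs alone DDAH2 was -0.19 in FO pairs, NOS3 0.00614 over the mean of the 3 diets and ARG2 -0.34 for FO minus control. In native cells they gave DDAH2 -0.29 and ARG2 0.37 for CHL and NOS3 0.44 and DDAH2 -0.32 for FO minus control, and in regenerated cells NOS3 0.45 (CHL) and 0.32 (FO). Label style as a block gave DDAH2 -0.29 and ARG2 0.37 (native CHL), NOS3 0.49 and DDAH2 -0.57 (native FO) and NOS3 0.45 and 0.22 (regenerated CHL and FO). For CHL minus control these 2 settings are not separate checks. Both compare the CHL cultures with those of the same 3 artery-labelled control pairs, and their values are counted under both settings. Without degraded animals ARG2 was -0.21 for FO minus control. The cause was not tested.

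Leaving out 1 animal moved the count of members in control pairs between 0 and 1 and left it at 0 in the other comparisons. Of 1000 member values 47 had the other sign. Their ranges were, in control pairs, -0.0554 to 0.16 for NOS3. In CHL pairs they were -0.13 to 0.0897 for NOS3, -0.20 to 0.22 for DDAH2, -0.18 to 0.34 for ARG2, -0.45 to 0.0566 for EDN1 and -0.35 to 0.11 for KLF4, and in FO pairs -0.19 to 0.43 for DDAH2. For CHL minus control NOS3 ran from -0.18 to 0.0468, and for FO minus control ARG2 from -0.13 to 0.33 and KLF4 from -0.0016 to 0.47. In native CHL minus control they were -0.23 to 0.12 for NOS3, -0.28 to 0.0349 for ARG2 and -0.39 to 0.16 for KLF4, and in native FO minus control -0.27 to 0.11 for NOS3 and -0.0200 to 0.48 for DDAH2. In regenerated CHL minus control NOS3 ran from -0.22 to 0.0912 and EDN1 from -0.20 to 0.11.

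Without the replicate block 0 members passed in control, CHL and FO pairs, over the mean of the 3 diets and in both diet contrasts, with DDAH2 in control pairs at an adjusted p of 0.254, and over all probe sets 8 passed in control pairs in place of 52 and 58 over the mean of the 3 diets in place of 480. The block changed no member's call. Of the other genes that passed, PPARG and POSTN passed without it, and ACTA2, MYL9, PDE3A, FABP4 and FAP did not (adjusted p of 0.202 to 0.332). ACTA2, MYL9 and FAP also missed the threshold with a pseudocount of 1 and with no filter. These settings for single list genes were chosen after seeing the data.

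Of the correlations between members, 3 of 10 passed in all pairs and 0 with same-number pairs alone, where fewer pairs enter. There NOS3 and KLF4 (-0.10) and EDN1 and KLF4 (-0.0387) turned, the second also with quantile normalization (-0.0116). Over regenerated levels NOS3 turned with DDAH2 (0.25), EDN1 (-0.20) and KLF4 (-0.58), and over native levels with ARG2 (0.0488), EDN1 (-0.27) and KLF4 (-0.17).

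Only 6 to 8 pairs a diet limit the precision. The limma p-values of regenerated minus native rest on the spread of the pair differences, which includes that between cultures and arrays. Those within native or within regenerated cells rest on the spread between animals and their cultures. The added 16 understates changes of dim probe sets.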
